A study of Mus musculus with 8 samples.

Results

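The genes described here are the enzymes of cholesterol synthesis from acetyl-CoA units to cholesterol, the proteins that control the transcription factor SREBP2, and the sterol carrier Stard4. They were taken by symbol from the deposited expression table: 26 genes were listed, and 26 of the 22962 genes of the table matched, each of them protein coding and each of them above the minimum level for testing. Bulk RNA sequencing was done on wild-type mouse cells from the stromal vascular fraction of gonadal fat, the cells that stay behind when mature fat cells float off, after they had been turned into adipocytes in culture. On day 6 the cultures received either DMSO, the solvent, or DoxSa, with 4 libraries in each of the 2 groups; both groups thus share genotype, tissue and differentiation, and no dose is given in the labels. The labels do not spell out DoxSa, and the title of the series concerns 1-deoxysphingolipids, sphingolipids built on alanine in place of serine. The labels name no separate animals or cultures behind the replicate numbers, so every p-value measures the spread between these libraries, which may be technical.

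Cells make cholesterol by first joining acetyl-CoA into mevalonate, then building isoprenoid units up to farnesyl diphosphate, and then closing squalene into a ring that later enzymes trim to cholesterol. When sterols in the endoplasmic reticulum are scarce, the escort protein SCAP carries SREBP2 to the Golgi, where the site-1 and site-2 proteases release its active part, and most genes of the pathway are transcribed together. When sterols are plentiful, INSIG proteins hold SCAP and SREBP2 back. Adipocytes store a large amount of free cholesterol in the surface of the lipid droplet, and transcript levels of this pathway are commonly read as a measure of SREBP2 activity.

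The promoters of the pathway share known sites for SREBP2 and for its partners NF-Y, which binds the CCAAT box, and Sp1, which binds the GC box. RefSeq promoter windows (build GRCm38.p6, from 250 bases before the start of transcription up to it) were found for 22 of the 26 genes, all but Sqle, Fdft1, Fdps and Stard4. Each was searched on both strands for 4 motifs. The SRE-like motif, the core of the element that SREBP2 binds, was searched as TCACNCCAC, and the CCAAT box by the letters of its name. A CCAAT box stood in the windows of 18 of the 22 genes, or 81.8%, while 40.7% of 9647 tested genes with a window held one. The GC box, searched as GGGCGG, stood in 19 of the 22, while 64.3% of the tested genes held one. The SRE-like motif stood in 1, Hmgcs1, and in 1.24% of the tested genes. An E-box, a site that SREBP proteins and many other factors can bind, was searched as CACGTG and stood in 5 of the 22, namely Hsd17b7, Sc5d, Dhcr7, Insig1 and Scap, and in 10.1% of the tested genes. Such matches are a description of these letters and no evidence of binding. The windows of Hmgcs1, Insig1 and Sc5d are shown as examples. The enzyme of Hmgcs1 makes the precursor of mevalonate, and Insig1 is the most abundant of the 26 transcripts. Sc5d, a late enzyme, is 1 of 3 members whose level lay lower in every DoxSa library than in every DMSO library. Capitals mark the matches to the motifs on either strand, none of which overlap. Hmgcs1 (Entrez 208715) is on the plus strand at chr13:119690101-119690350, Insig1 (Entrez 231070) on the plus strand at chr5:28071162-28071411, and Sc5d (Entrez 235293) on the minus strand at chr9:42264301-42264550.
Hmgcs1: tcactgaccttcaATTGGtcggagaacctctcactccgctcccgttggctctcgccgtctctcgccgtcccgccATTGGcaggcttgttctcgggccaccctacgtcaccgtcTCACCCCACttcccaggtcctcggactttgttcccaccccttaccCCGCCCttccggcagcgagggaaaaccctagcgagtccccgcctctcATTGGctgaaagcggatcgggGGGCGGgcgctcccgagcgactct
Insig1: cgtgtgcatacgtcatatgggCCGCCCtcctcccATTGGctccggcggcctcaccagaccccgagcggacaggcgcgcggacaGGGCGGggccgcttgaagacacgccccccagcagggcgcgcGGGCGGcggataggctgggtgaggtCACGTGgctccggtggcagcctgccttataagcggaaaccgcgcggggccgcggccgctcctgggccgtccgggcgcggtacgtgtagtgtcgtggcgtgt
Sc5d: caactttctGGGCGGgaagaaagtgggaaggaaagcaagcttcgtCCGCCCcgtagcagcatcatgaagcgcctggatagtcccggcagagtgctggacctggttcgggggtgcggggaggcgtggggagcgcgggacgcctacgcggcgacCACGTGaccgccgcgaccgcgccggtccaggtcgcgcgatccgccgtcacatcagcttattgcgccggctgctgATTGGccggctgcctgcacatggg
The Hmgcs1 window held 3 CCAAT boxes, 2 GC boxes and the SRE-like motif, which began 137 bases before the start. Insig1 and Sc5d each held 1 CCAAT box and 1 E-box, with 3 and 2 GC boxes.

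Depth, recovered from the steps of the values, was 39213008 to 41365861 reads per library, and the members had between 693 reads (Tm7sf2) and 25070 reads (Insig1) in a library, so the counting error was at most 3.80% per value. Levels are given as FPKM, the reads of a gene per kilobase of its length and per unit of the library total. The labelled cell type is the mature adipocyte. The 10 adipocyte markers summed to 11898 to 12125 FPKM in DMSO and 11784 to 12603 in DoxSa, and the 11 macrophage markers, all of them detected, to 7081 to 8137 and 7857 to 8390 FPKM. The 10 fibroblast and progenitor markers summed to 3340 to 3697 and 3299 to 3719 FPKM, with Dpp4 and Pi16 below the minimum level. Most of each of these sums came from its most abundant genes, so a sum does not show the level of every marker in it. Lymphocyte markers were at or near 0 (6 of 6 below 0.5 FPKM), as were 6 of 7 endothelial and 5 of 6 mesothelial markers. In such bulk samples fewer cells of a type and less RNA per cell cannot be told apart.

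No member of the pathway passed the test in either direction. Of the 26 genes, 0 were called higher and 0 lower by limma at a Benjamini-Hochberg adjusted p under 0.05, on log2(FPKM + 1) with n = 4 per group; of all 12060 tested genes 3.88% were called higher and 2.02% lower. Of these calls 65.7% were higher, and 54.9% with quantile normalization. At an unadjusted p under 0.05 there were 4 of 26, all lower (Tm7sf2, Sc5d, Pmvk and Hsd17b7), where 7.24% of all tested genes were lower at that level. In a list of this size a count of 0 lies near the background shares and says little by itself. The intervals bound the changes: all 26 of the 95% intervals lay within 0.25 of 0 on the log2 scale. Of the intervals of all tested genes 78.1% did, and 84.2% for the 6949 tested genes within the members' range of mean FPKM. The lowest bound, for Tm7sf2, was -0.24, a fall of 15.6% in FPKM + 1 and only just inside that limit. The highest, for Ggps1, was 0.18, a rise of 13.4% in FPKM + 1. Fold changes on this scale understate those of low genes, so the count of intervals within the limit holds for FPKM + 1 and not for FPKM itself.

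**Figure D1:**
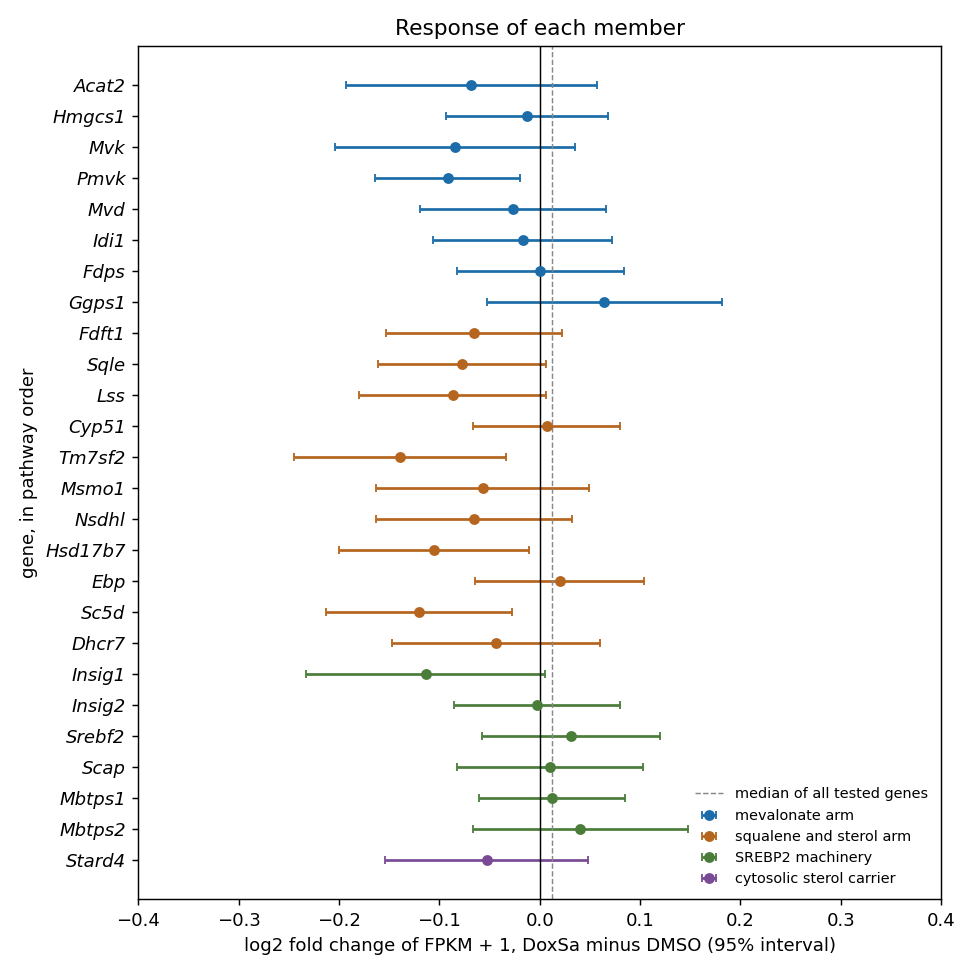
Log2 fold change of FPKM + 1 (DoxSa minus DMSO, x axis) of the 26 genes in pathway order (y axis), with 95% intervals of the limma fit (n = 4 per group) and the median of all 12060 tested genes as a dashed line. Of the 26 points 18 lie below 0, and every interval stays between -0.24 and 0.18.

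Point estimates leaned to the lower side. Of the 26 genes 18 had a negative log2 fold change, or 69.2%, and of all tested genes 43.3% did. The median over the members was -0.048 and over all tested genes 0.012. By arm the median was -0.022 for the 8 genes up to the isoprenoid diphosphates, -0.066 for the 11 genes from squalene synthase onwards and 0.011 for the 6 genes of the SREBP2 machinery. The median for the members was -0.077 with quantile normalization, and 22 of 26 estimates were then negative, as they also were by voom on recovered reads, by median-of-ratios scaling and after setting the FPKM sums equal. These are descriptions of a chosen list and carry no test. Of the 10 adipocyte markers 8 also had negative estimates, with a median of -0.056, and Retn, the gene of the adipokine resistin, was called lower (log2 fold change -0.20, adjusted p = 0.0151). Among 8 tested fibroblast and progenitor markers 5 estimates were negative, with a median of -0.055, and Pdgfrb, a receptor of mural and progenitor cells, was called lower (log2 fold change -0.23, adjusted p = 0.00383). The part of these cell types in the estimates of the members was not tested.

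In the mevalonate arm, levels ran from Fdps, which encodes farnesyl diphosphate synthase, to Ggps1, which makes the geranylgeranyl diphosphate used to anchor proteins in membranes. Acat2, the cytosolic thiolase that joins 2 acetyl-CoA, measured 53.2, 51.9, 56.5 and 57.3 FPKM in DMSO 1 to 4 and 56.7, 46.7, 54.3 and 51.1 FPKM in DoxSa 1 to 4. DoxSa 2 was the lowest of the 8, and the groups overlapped (log2 fold change -0.068, 95% interval -0.19 to 0.057, adjusted p = 0.571). Hmgcs1 measured 65.5, 72.3, 70.8 and 70.3 FPKM in DMSO and 70.1, 70.4, 67.7 and 68.0 FPKM in DoxSa. Its lowest value was that of DMSO 1, all DoxSa values lay inside the DMSO range, and the log2 fold change was -0.013 (95% interval -0.093 to 0.068).

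Pmvk (Entrez 68603), the kinase that adds the second phosphate to mevalonate, was the 1 gene of this arm whose groups did not overlap. It measured 25.9, 27.0, 27.5 and 27.0 FPKM in DMSO and 24.6, 25.6, 25.5 and 24.8 FPKM in DoxSa. Every DoxSa library was below every DMSO library, by a narrow margin between DMSO 1 and DoxSa 2 (log2 fold change -0.092 ± 0.033, SE, adjusted p = 0.145). Mvk, the kinase before it, measured 17.9 and 18.0 FPKM in DMSO 1 and 2 but 15.8 and 15.1 FPKM in DMSO 3 and 4, and 15.7, 15.7, 16.04 and 15.2 FPKM in DoxSa. Its DMSO libraries thus split in pairs, and the DoxSa libraries lay with the lower pair. For Mvd, which forms isopentenyl diphosphate, and Idi1, which isomerizes it, the log2 fold changes were -0.027 (95% interval -0.12 to 0.066) and -0.017 (-0.11 to 0.072). Fdps measured 121, 126, 130 and 122 FPKM in DMSO and 126, 126, 130 and 118 FPKM in DoxSa. Its group means, 125 ± 4.06 and 125 ± 4.94 FPKM (SD, n = 4), gave a log2 fold change of 0.00042 (95% interval -0.083 to 0.084). Ggps1, the lowest of the 26 at 4.71 ± 0.287 and 4.97 ± 0.305 FPKM, had the highest estimate, 0.064 (95% interval -0.053 to 0.18, adjusted p = 0.568).

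**Figure D2:**
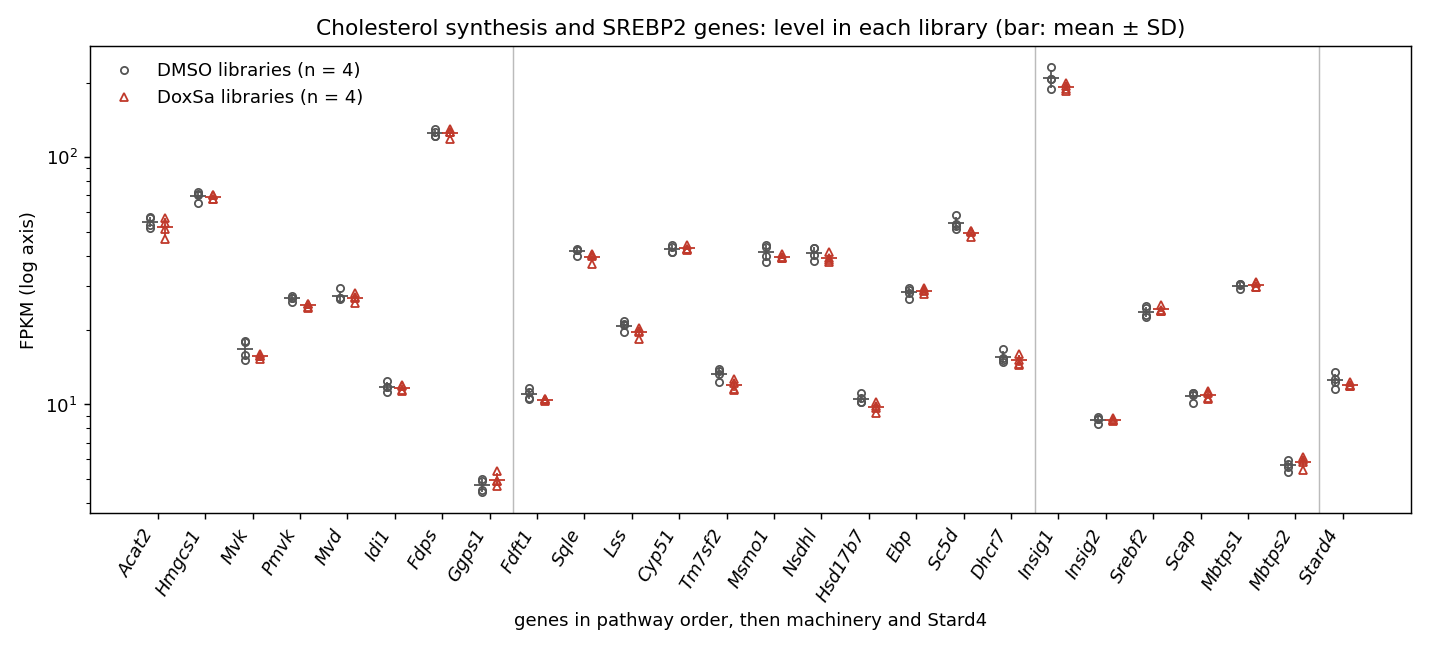
FPKM (y axis, log scale) of each gene (x axis, pathway order, with vertical lines between the mevalonate arm, the sterol arm, the SREBP2 machinery and Stard4) in each library, with the mean and SD of the 4 libraries of a group. The 2 groups lie close together for every gene, over levels from 4.71 FPKM for Ggps1 to 208 FPKM for Insig1 in DMSO.

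The sterol arm held the lowest estimates. Fdft1 makes squalene, Sqle adds the oxygen that is needed for ring closure, and Lss closes the ring to lanosterol. Sqle measured 39.7, 42.0, 42.0 and 42.7 FPKM in DMSO and 37.1, 40.5, 40.1 and 39.8 FPKM in DoxSa. DoxSa 1 was the lowest library and DMSO 1 fell among the DoxSa values (log2 fold change -0.078 ± 0.038, SE, adjusted p = 0.288). Lss, at 20.9 ± 0.914 FPKM under DMSO against 19.6 ± 0.784 FPKM under DoxSa (SD, n = 4), had an estimate of -0.087 (adjusted p = 0.288), and Fdft1 one of -0.066 (adjusted p = 0.407). For Cyp51, the lanosterol demethylase that needs electrons from cytochrome P450 reductase, the means were 42.6 ± 1.35 and 42.8 ± 0.784 FPKM, with a 95% interval of the log2 fold change of -0.067 to 0.080.

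Tm7sf2 (Entrez 73166), a sterol reductase of the step after Cyp51, had the lowest estimate of the 26. It measured 12.3, 13.3, 13.7 and 13.9 FPKM in DMSO and 11.5, 12.3, 11.4 and 12.6 FPKM in DoxSa. DMSO 1 lay among the DoxSa libraries and the other DMSO libraries above all of them (log2 fold change -0.14 ± 0.048, SE, adjusted p = 0.130). Without DMSO 1 its estimate was -0.17 with an adjusted p of 0.0592, the smallest adjusted p of any member in any of the 18 alternative fits. Msmo1 and Nsdhl, which together remove methyl groups from the ring, had estimates of -0.057 and -0.065 (adjusted p = 0.581 and 0.467). In Msmo1 the DMSO libraries ran from 37.7 to 44.3 FPKM and the DoxSa libraries from 39.0 to 40.5 FPKM, so the DoxSa values all lay inside the DMSO range.

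Hsd17b7 (Entrez 15490), the keto-reductase of the same demethylating complex, measured 10.3, 11.1, 10.2 and 10.6 FPKM in DMSO and 10.2, 9.25, 9.86 and 9.68 FPKM in DoxSa. The highest DoxSa library, DoxSa 1, was just under the lowest DMSO library, DMSO 3 (log2 fold change -0.11 ± 0.043, SE, adjusted p = 0.199). Sc5d, the desaturase that puts in a double bond of the second ring, measured 51.1, 52.8, 53.7 and 58.3 FPKM in DMSO and 49.7, 47.7, 50.4 and 50.4 FPKM in DoxSa. All DoxSa libraries were below all DMSO libraries and DMSO 4 was the highest (log2 fold change -0.12 ± 0.042, SE, adjusted p = 0.133). With Pmvk these made 3 of 26 genes whose groups did not overlap with DoxSa lower, against 4.71% of all tested genes, and 0 with DoxSa higher, against 7.80%. Ebp, the sterol isomerase, and Dhcr7, a late reductase of a ring double bond, had estimates of 0.020 (95% interval -0.064 to 0.10) and -0.043 (-0.15 to 0.060).

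Among the SREBP2 machinery, Insig1 is the member that is itself a strong SREBP2 target, and its transcript is often taken as a readout of the pathway. It measured 189, 206, 207 and 231 FPKM in DMSO and 189, 184, 195 and 200 FPKM in DoxSa. DMSO 4 was the highest and DMSO 1 lay among the DoxSa libraries, so that the groups overlapped (208 ± 17.4 and 192 ± 6.67 FPKM, SD, n = 4; log2 fold change -0.11 ± 0.054, SE, 95% interval -0.23 to 0.0052, adjusted p = 0.273). Insig2, its paralog with the same retaining role, measured 8.69 ± 0.262 and 8.67 ± 0.108 FPKM, with a 95% interval of the log2 fold change of -0.085 to 0.080. The log2 ratio of Insig1 to Insig2 within a library ranged from 4.26 to 4.57 in DMSO and from 4.24 to 4.38 in DoxSa, a difference of -0.11 between the group means (exact two-sided permutation test over 70 assignments, p = 0.171, adjusted p = 0.343 over 2 ratios). The smallest p that this design allows is 0.0286.

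Srebf2, the gene of SREBP2, measured 24.9, 24.5, 22.9 and 22.6 FPKM in DMSO and 24.0, 23.9, 25.2 and 23.9 FPKM in DoxSa. Here DMSO 1 and 2 were higher than DMSO 3 and 4, as in Mvk, and the log2 fold change was 0.031 (95% interval -0.057 to 0.12, adjusted p = 0.739). Scap measured 10.8 ± 0.446 and 10.9 ± 0.388 FPKM (SD, n = 4), with an estimate of 0.010 (95% interval -0.082 to 0.10). The proteases differed in level, with Mbtps1 (site-1 protease) at 30.2 ± 0.691 and 30.5 ± 0.713 FPKM and Mbtps2 (site-2 protease) at 5.67 ± 0.269 and 5.86 ± 0.301 FPKM. Their log2 fold changes were 0.012 (95% interval -0.061 to 0.085) and 0.041 (-0.066 to 0.15), and the log2 ratio of Mbtps1 to Mbtps2 differed by -0.029 between the groups (exact two-sided permutation test, p = 0.571, adjusted p = 0.571). Stard4, a carrier that moves cholesterol between membranes and an SREBP2 target, measured 11.6, 12.3, 12.7 and 13.5 FPKM in DMSO and 12.0, 11.9, 11.8 and 12.4 FPKM in DoxSa, with all DoxSa values inside the DMSO range (log2 fold change -0.053, adjusted p = 0.596).

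Levels of the members spread over a wide range. Insig1 alone made up 21.3% of the summed FPKM of the 26 genes, and Fdps 13.3%. After these came Hmgcs1, Acat2 and Sc5d, and these 5 had means over the 8 libraries above 50 FPKM. At the other end Insig2, Mbtps2 and Ggps1 were the 3 genes below 10 FPKM. The median gene of the list stood at 24.995 FPKM and 24 of the 26 stood above the median of all tested genes, 7.09 FPKM. Exons of 8 members overlap those of another gene in the GENCODE M21 annotation, among them Fdft1 with Ctsb on the opposite strand. Overlaps on the same strand are those of Fdps with Gm43738, Tm7sf2 with Vps51 and Mbtps2 with Yy2. That of Fdps covers 1124 bases, where the gene length recovered from its FPKM is 1461 bases. The strand setting is not stated, and reads in such stretches cannot be told apart.

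The summed FPKM of the members was 913, 956, 971 and 989 FPKM in DMSO 1 to 4 and 922, 909, 930 and 922 FPKM in DoxSa 1 to 4, with group means of 957 ± 32.5 and 921 ± 8.93 FPKM (SD, n = 4). As a share of all FPKM it was 0.231% ± 0.00849 in DMSO and 0.220% ± 0.00419 in DoxSa. DMSO 1 lay among the DoxSa libraries and the other DMSO libraries above all of them. The same held for the mean deviation of the 26 genes from their mean over 8 libraries: it was -0.020 in DMSO 1, 0.025, 0.042 and 0.034 in DMSO 2 to 4, and between -0.038 and -0.012 in DoxSa. DMSO 4 had the highest value of the 8 for 9 of the genes and DoxSa 2 the lowest for 8. In the sterol arm the mean deviations were -0.031, 0.044, 0.048 and 0.073 in DMSO 1 to 4 and -0.049 to -0.018 in DoxSa. Those of the SREBP2 machinery lay between -0.027 and 0.018 in all libraries.

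**Figure D3:**
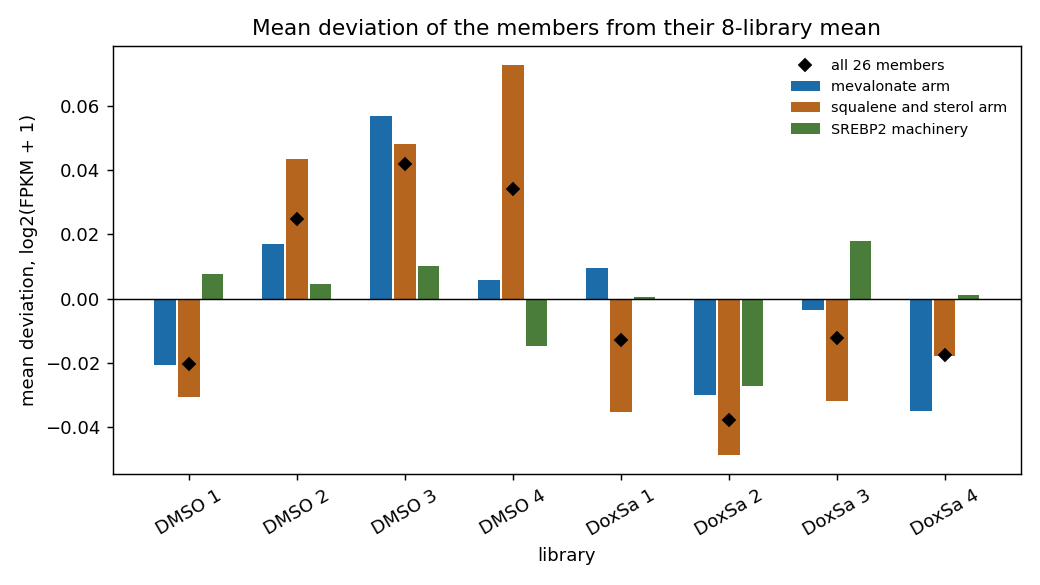
Mean deviation of log2(FPKM + 1) from the mean over 8 libraries (y axis) for the 3 arms (bars) and all 26 members (diamonds) in each library (x axis). DMSO 1, at -0.020 for all members, lies within the range of the DoxSa libraries.

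The spread between libraries was smaller under DoxSa for 19 of the 26 genes, or 73.1%, and for 56.6% of all tested genes. The median SD of log2(FPKM + 1) over the members was 0.061 in DMSO and 0.042 in DoxSa, and over all tested genes 0.072 and 0.066. No test of this difference was made.

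Other genes of the pathway were read from 8 lists, 84 tested genes in all that are not among the 26. Of these 4 rose and 4 fell by the limma call, where 3.88% of all tested genes were called higher and 2.02% lower. In lists this short, small counts say little by themselves. None of 5 tested further enzymes of cholesterol synthesis, none of 5 electron donors of its oxidation steps and none of 11 tested genes of sterol-regulated protein degradation and SREBP processing was called. Voom on recovered reads called 0 in each as well. By unadjusted p under 0.05 in limma there were 1, 1 and 2, all higher, where 1520 of all 12060 tested genes were higher at that level. The electron donor was Por, the cytochrome P450 reductase that serves Cyp51 and Sqle, named after its values were seen. Por stood at 52.3 ± 2.39 FPKM under DMSO against 57.2 ± 2.64 FPKM under DoxSa (SD, n = 4), with no overlap between the groups (log2 fold change 0.13 ± 0.043, SE, adjusted p = 0.130). Of all tested genes 7.80% had no overlap with DoxSa higher, and the other 4 electron donors had negative estimates.

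Of 13 lipogenic genes that are mainly targets of SREBP1, 3 fell and 0 rose, with a median log2 fold change of -0.13. Among all tested genes 2.02% were called lower. Acss2, which makes cytosolic acetyl-CoA from acetate, measured 240, 250, 252 and 258 FPKM in DMSO and 205, 201, 220 and 228 FPKM in DoxSa. Every DoxSa library was below every DMSO library (log2 fold change -0.23 ± 0.044, SE, adjusted p = 0.0127). Acly, which makes acetyl-CoA from citrate, measured 197 ± 9.43 and 171 ± 9.63 FPKM (SD, n = 4; log2 fold change -0.20 ± 0.048, adjusted p = 0.0296), and Me1, an NADPH-forming malic enzyme, fell by 0.18 ± 0.048 on the log2 scale (adjusted p = 0.0492). Acss2 stayed called whichever 1 library was left out, but was not called when every gene of the table was tested (adjusted p = 0.0650), a setting that also ended the calls of Acly, Me1, Mmab, Soat2, Nceh1 and Rabggtb. Acly lost its call without DMSO 2, 3 or 4 or DoxSa 1, 2 or 4, with no intensity trend (adjusted p = 0.0543) and with quantile normalization (0.0560). Me1 lost its call without any 1 library other than DMSO 1, with no intensity trend (adjusted p = 0.0802), with library weights (0.0698) and with median-of-ratios scaling (0.0592). Srebf1, the gene of SREBP1, had an estimate of -0.034 (95% interval -0.15 to 0.086, adjusted p = 0.798). Neither a difference in response between these genes and the members nor the part of the adipocyte markers, whose estimates are given above, was tested.

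Against a share of 2.02% called lower among all tested genes, 1 of 8 tested SREBP2 targets outside synthesis fell and 0 rose. That gene was Mmab, a cobalamin enzyme whose promoter region lies next to that of Mvk, at 22.1 ± 0.760 FPKM under DMSO against 19.4 ± 1.18 FPKM under DoxSa (SD, n = 4; log2 fold change -0.18 ± 0.046, SE, adjusted p = 0.0405). It lost its call without DMSO 2, 3 or 4 or DoxSa 1, 2 or 3, with no intensity trend (adjusted p = 0.0624) and with library weights (0.0708). With the 2 FPKM minimum, and also without DMSO 1, 1 gene of this list was called higher.

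Among 17 tested genes of sterol uptake, esterification and transport 2 rose and 0 fell, and 3.88% of all tested genes were called higher. Soat2, which esterifies cholesterol for storage, measured 0.725, 0.636, 0.566 and 0.758 FPKM in DMSO and 1.19, 1.17, 0.965 and 0.911 FPKM in DoxSa. The groups did not overlap, at a level close to the minimum for testing (log2 fold change 0.30 ± 0.064, SE, adjusted p = 0.0196; not called without DMSO 2, DMSO 3, DoxSa 1 or DoxSa 2). At this low level the size depended on the scale: the log2 fold change was 0.59 with a pseudocount of 0.1 and 0.64 by voom on recovered reads, with adjusted p of 0.0205 and 0.0383. Nceh1, which cleaves cholesteryl esters, measured 9.42 ± 0.809 and 11.2 ± 0.487 FPKM (log2 fold change 0.24 ± 0.057, adjusted p = 0.0355), and lost its call without any 1 library other than DMSO 1 and with quantile normalization (adjusted p = 0.0536). The summed levels of the macrophage markers, given above, overlapped between the groups, but 11 of 11 estimates were positive and 1, Ptprc, was called higher (log2 fold change 0.26, adjusted p = 0.0301); the part of these cells in the results was not tested.

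In the branches that use mevalonate products for other ends, 1 of 16 genes rose and 0 fell, and 3.88% of all tested genes were called higher. Rabggtb, a subunit of the enzyme that attaches geranylgeranyl groups to Rab proteins, stood at 17.9 ± 0.529 FPKM under DMSO against 20.5 ± 0.947 FPKM under DoxSa (SD, n = 4; log2 fold change 0.19 ± 0.041, SE, adjusted p = 0.0223). It lost its call without DMSO 2, DoxSa 1 or DoxSa 2. Of 9 genes read for the site-1 and site-2 proteases, 8 encode other proteins that they cut. The remaining 1, Hspa5, is a target of ATF6, 1 of these proteins, which acts in endoplasmic reticulum stress. Hspa5 measured 340, 348, 332 and 371 FPKM in DMSO and 472, 498, 458 and 473 FPKM in DoxSa, where every library was higher (log2 fold change 0.45 ± 0.041, adjusted p = 2.01e-04). It stayed called in each of the 18 alternatives. None of the other 8 was called.

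**Figure D4:**
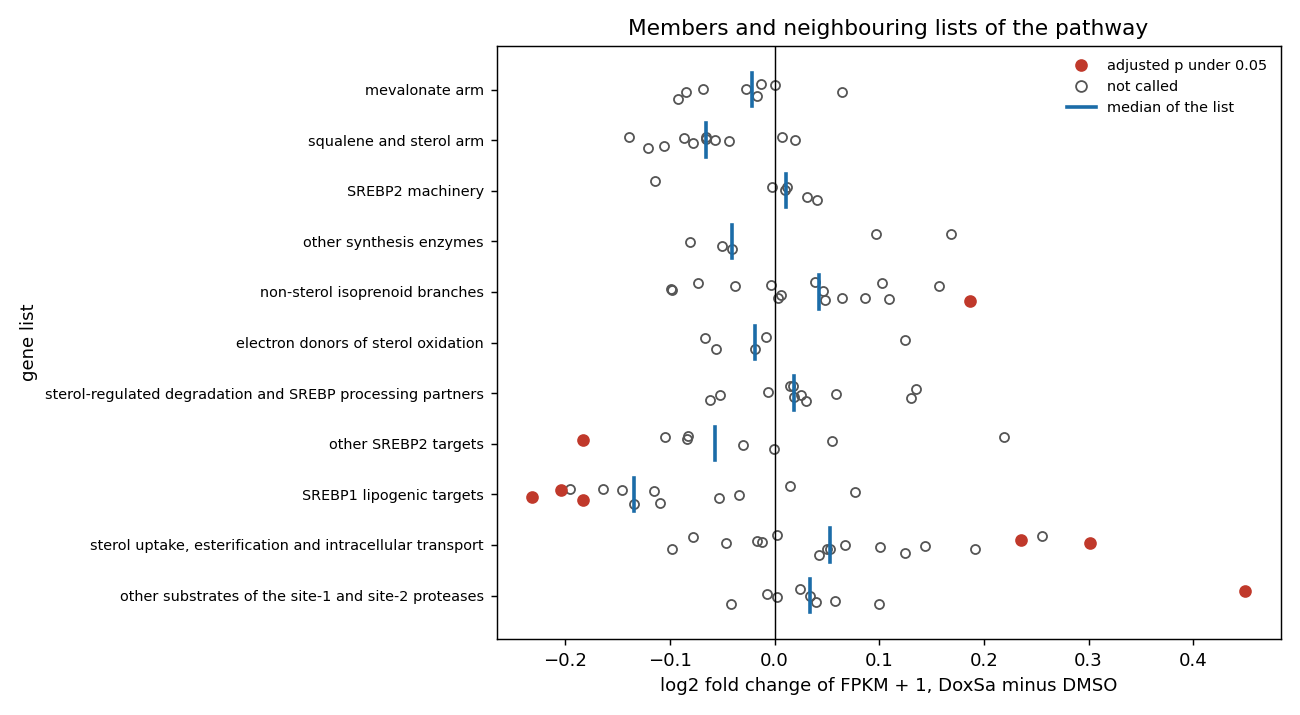
Log2 fold change of FPKM + 1 (DoxSa minus DMSO, x axis) of each tested gene in the 3 arms and in the other lists (y axis), with called genes as filled points and the median of each list as a bar; Hspa5 is drawn with the protease substrates. No gene of the 3 arms is filled, and the 4 genes called lower are Acss2, Acly and Me1 among the SREBP1 targets and Mmab among the SREBP2 targets.

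The median SE of the log2 fold change was 0.042 over the members and 0.047 over the tested genes of like level, members among them. Of the 6949 tested genes whose mean lay within the range of the members, 6.95% were called, and the median absolute log2 fold change of those called was 0.26. The smallest called was 0.12, and 9 of the 483 called genes had a change no larger than that of Tm7sf2. The estimates of 25 of the 26 members were smaller in size than the smallest called, and that of Tm7sf2 was the exception. A call favours large changes, so the sizes of called genes do not measure precision, and members without a call tend to fall below them.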

How the data were processed

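The authors deposited 1 table with FPKM for 22962 genes in 8 libraries (per the labels, the columns of 4 DMSO and 4 DoxSa samples). HISAT2, HTSeq and the build GRCm39 are named per the submitters' processing notes, and TRIzol extraction and a VAHTS Universal V6 kit per the labels' protocols. Versions, annotation, strand setting and filters are not stated in these labels or notes.

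Library totals, gene lengths and whole reads were recovered from the steps of FPKM: for 12060 of 12060 tested genes all values came out within 0.001 of a whole number. The test was limma 3.58.1 (R 4.3.3) on log2(FPKM + 1) with an intensity trend, on genes averaging 0.5 FPKM or more, with Benjamini-Hochberg adjustment over all of them, and was tested on simulated data. Python 3.11.15 with scipy 1.17.1 did the other steps. Alternatives were another pseudocount (0.1), other filters (none, or 2 FPKM), no trend, library weights, 3 other scalings, voom with TMM on recovered reads, a replicate block and leaving out each library. The members and lists were chosen with earlier results of these data known. The naming rule took all 26 members, the called genes of the other lists and 5 further genes whatever their result; 3 of those 5 are not reported here, though the counts of their lists include them. Por and Ch25h were named after their values were seen.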

Additional observations from a re-analysis of the deposited data

Results flagged for a closer look

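Among 58 sets of 4 libraries looked at for a single library far from the rest (each member in each group, the share of all FPKM and the 2 ratios), 2 were flagged, and chance flags about 1 in 20. Mvd in DMSO 3 stood at 29.5 FPKM and the other DMSO libraries at 26.7 to 27.1, a gap of 0.878 of the range. Srebf2 in DoxSa 3 stood at 25.2 FPKM and the other DoxSa libraries at 23.9 to 24.02, a gap of 0.884 of the range.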

How the results depend on the processing

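In each of 18 alternative fits 0 of 26 members were called higher and 0 lower. Member log2 fold changes lay between -0.17 (Tm7sf2 without DMSO 1) and 0.09 (Ggps1 without DMSO 3). Their median was -0.077 with quantile normalization and -0.051 to -0.027 over left-out libraries. Of all tested genes, 158 were called higher and 108 lower with no filter on low values, which tested more genes, and 372 lower by voom. Over left-out libraries 233 to 490 were called higher and 152 to 235 lower; counts moved past 1.5 times without DoxSa 1 (247 higher, 154 lower), DoxSa 2 (233 and 152), DoxSa 3 (308 higher) and DMSO 2 (158 lower). Quantile normalization gave 384 higher and 316 lower in place of 468 and 244. For the other lists together the counts were 1 higher and 0 lower with no filter, 1 lower with no intensity trend, and 2 lower with library weights and with the replicate block. Over left-out libraries they were 1 to 6 higher and 1 to 4 lower. The cause was not tested. The difference of the log2 ratio was -0.169 to -0.064 for Insig1 over Insig2, -0.066 to 6.00e-05 for Mbtps1 over Mbtps2 (the latter without DoxSa 1), and that of the members' share of FPKM -0.0145 to -0.00763 percentage points, over left-out libraries. Soat2 was not tested with the 2 FPKM minimum.

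No pairing by replicate number was seen in the values, and the labels do not state whether one was made. Deviations of same-numbered libraries from their group means correlated between -0.0989 and 0.0654 across genes (all 16 pairs: -0.205 to 0.154), and 1 library of 8 correlated best with its own number. The replicate block gave 415 higher and 209 lower genes and 0 members. With it the adjusted p was 0.0567 for Acly, 0.0524 for Me1 and 0.0528 for Rabggtb, which were then not called, and the other 5 called genes of the lists stayed called.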

Other observations

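Genes that the deposited annotation terms tie to the pathway gave the following values. Of 26 tested genes under the Reactome term for cholesterol synthesis, 20 of them members, 0 were called higher and 0 lower, with a median log2 fold change of -0.047. Against a share of 3.88% called higher among all tested genes, 1 of 27 tested genes under the GO term for sterol synthesis rose and 0 fell. That gene was Ch25h, named after its values were seen, which makes a side-chain oxysterol that is known to hold SREBP2 back and is induced by interferons. Ch25h measured 13.2, 10.8, 12.2 and 10.7 FPKM in DMSO 1 to 4 and 18.6, 17.1, 16.5 and 15.0 FPKM in DoxSa 1 to 4, and every DoxSa library was above every DMSO library. Its log2 fold change was 0.48 ± 0.07 (SE, limma adjusted p = 0.00366), and it stayed called in each of the 18 alternatives, with adjusted p between 0.00116 and 0.0411. No relation between Ch25h and the members was tested.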
